A study of Mus musculus with 12 samples.

Results

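Orphan and adhesion G protein-coupled receptors were followed in maps of N6-methyladenosine (m6A), a methyl mark on adenosines inside messenger RNA, from lungs of mice with ovalbumin-induced asthma and of control mice. The set held every peak whose gene name was Gpr or Adgr followed by the member's number, with Gpr183 included, and 59 of the 15332 gene names in the lists met that rule. They carried 108 of 27292 peaks in the asthma list and 100 of 26102 peaks in the control list.

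All mice were female BALB/c animals of 6 to 8 weeks. The asthma group (OVA) was injected on days 0 and 7 with ovalbumin, an egg protein used as an allergen, together with aluminum hydroxide, and inhaled an aerosol of 3% ovalbumin for 30 min daily on days 14 to 20. The control group (PBS) received phosphate-buffered saline without allergen or adjuvant by the same routes, so the groups differ in both agents. Lungs of both groups were taken on day 21, and the paper describes collecting them after an airway test with nebulized methacholine under anesthesia. Fragmented lung RNA of 3 mice per group was precipitated with an m6A antibody (IP) and sequenced beside unprecipitated RNA (input), and 1 peak list per group was used here.

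G protein-coupled receptors cross the membrane as a bundle of helices and pass a signal from outside the cell to G proteins inside it. Orphan receptors are those whose natural ligand was unknown when they were named, and several have since been matched to lipids, protons or metabolites that guide immune cells. Adhesion receptors have long extracellular regions that bind matrix or neighbouring cells, and most cut themselves at a site close to the membrane, which exposes a tethered stretch that can activate the receptor. In the lung, receptors of both kinds act on leukocyte positioning, on the endothelium and on surfactant balance. The m6A mark is written by the METTL3 and METTL14 complex, removed by FTO and ALKBH5, and read by proteins that alter the decay and translation of the RNA.

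The value given for each peak is its fold enrichment, the ratio of IP over input reads in the peak as the authors' caller listed it. The lists hold no value of single mice and no read counts, so there are no replicates, the number of reads behind each value is unknown and no test between groups was made. A peak also needs enough RNA to be found, and in whole lung, fewer cells of a type and less RNA per cell cannot be told apart.

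The label fitted most members. Of the 59 genes, 53 carried the term G protein-coupled receptor activity in the annotation of the lists and 49 the term plasma membrane. The 6 without the receptor term were Gpr107, Gpr108, Gpr137, Gpr155, Gpr180 and Gpr89, which have a receptor-like name; of these, Gpr107, Gpr108 and Gpr89 were annotated to the Golgi apparatus. The 59 genes were made up of 45 Gpr and 14 Adgr names, out of 70 and 27 such symbols in RefSeq. Both lists held a peak for 46 of them.

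Members had slightly stronger peaks than the lists as a whole. The median fold enrichment of member peaks was 6.63 in OVA (quartiles 3.46 and 14.2) and 6.95 in PBS (3.53 and 11.5), beside 5.59 and 5.44 over all peaks. The sets differ in transcript type: 74.1% of member peaks in OVA and 71.0% in PBS were assigned to protein-coding transcripts. Over all peaks these shares were 41.8% and 42.5%, and the part of transcript type in the comparison was not tested. The member values ran from 1.65 to 40.6 in OVA and from 1.40 to 38.7 in PBS. Adhesion receptors had a median of 7.41 in OVA and 5.30 in PBS, and the Gpr names 6.33 and 7.13, so the order of both families differed between the lists.

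In OVA 58 of 108 member peaks lay in a 3′ UTR (53.7%, 95% Wilson interval 44.3 to 62.8) and in PBS 50 of 100 (50.0%, 40.4 to 59.6), beside 52.7% of all peaks in either list. Intervals here cover counting error only, and peaks of one gene are not independent. The 5′ UTR share of member peaks was 19.4% in OVA (13.1 to 27.9) and 16.0% in PBS (10.1 to 24.4), beside 11.6% and 11.4% of all peaks. The OVA interval lay above the share of all OVA peaks, while the PBS interval contained that of all PBS peaks. Here too the sets differ in transcript type, and its part in the 5′ UTR share was not tested.

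**Figure D1:**
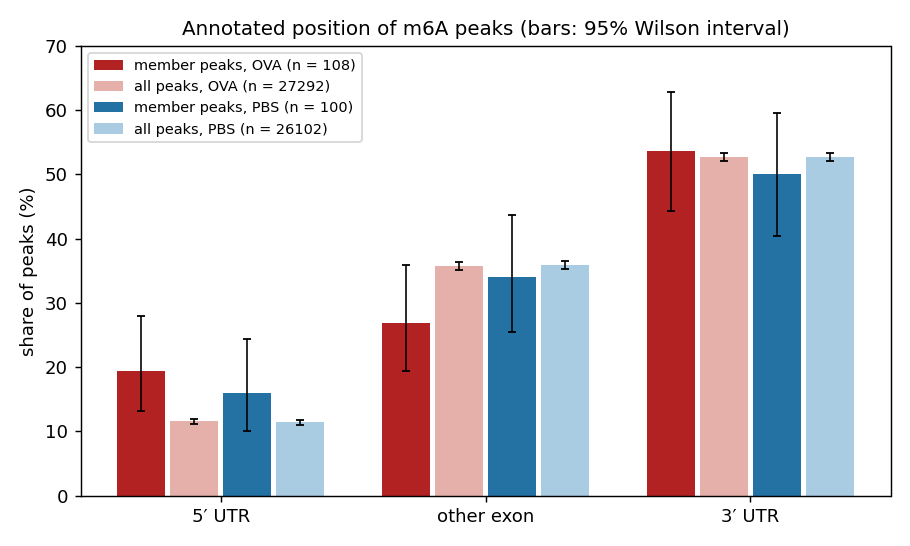
Share of m6A peaks (%) annotated to the 5′ UTR, to other exon sequence and to the 3′ UTR, for member peaks (dark) and all peaks (light) of the OVA and PBS lists; error bars are 95% Wilson intervals. Member peaks in the 5′ UTR stood at 19.4% in OVA and 16.0% in PBS, above the 11.6% and 11.4% of all peaks, with wide intervals.

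Most member peaks shared at least 1 exonic bp with a peak of the other list. In OVA 20 of 108 member peaks had no overlapping PBS peak (18.5%, 12.3 to 26.9), where 19.4% of all OVA peaks had none. In PBS 12 of 100 had no overlapping OVA peak (12%, 7.0 to 19.8), where the share of all PBS peaks was 14.5%. Both shares were close to those of all peaks. The counts depend on the overlap asked for: with 50% of both peaks shared, 39 OVA and 32 PBS member peaks had no counterpart, and with identical start and end 96 and 88. The unshared member peaks were weak and short: their median fold enrichment was 2.90 in OVA and 2.87 in PBS, against 8.92 and 7.40 for the shared ones, and their median exonic length was 151 and 122 bp, against 422 and 392 bp. Over all peaks the unshared medians were 2.87 and 3.45, so weak unshared peaks were not a property of the receptors alone.

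By name, 11 of the 59 genes had a peak in OVA only (18.6%, 10.7 to 30.4), beside 11.5% of all gene names in either list. In PBS only there were 2 (3.4%, 0.9 to 11.5), beside 7.92% of all names. Both intervals contained the share of all names. The 11 included Adgrb2, Gpr108, Gpr142, Gpr20, Gpr4, Gpr45, Gpr55, Gpr65, Gpr82 and Gpr84, and the 2 were Adgrl4 and Gpr25. These names follow the nearest transcript start, and part of this difference came from naming: by the gene on which the peak was called, Gpr4, Gpr55 and Gpr65 had peaks in both lists, and the only peak named for Gpr25 was called on Camsap2.

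Peaks that are each other's largest overlap were paired, giving 82 pairs with a member name and 20532 pairs in all. The OVA over PBS ratio of fold enrichment had a median of 1.15 over member pairs (quartiles 0.874 and 1.53) and 1.10 over all pairs (0.878 and 1.37). Ratios near 1.10 are therefore the usual value of these lists. The ratio was above 1 in 52 of 82 member pairs (63.4%), beside 61.4% of all. At least 2 times higher in OVA were 10 member pairs (12.2%, 6.8 to 21), beside 7.77% of all pairs, and at least 2 times higher in PBS were 4 (4.9%, 1.9 to 11.9), beside 4.93%. Both intervals contained the share of all pairs. How the lists were scaled to each other is not stated, so a ratio describes the listed values and is not a tested change in methylation.

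**Figure D2:**
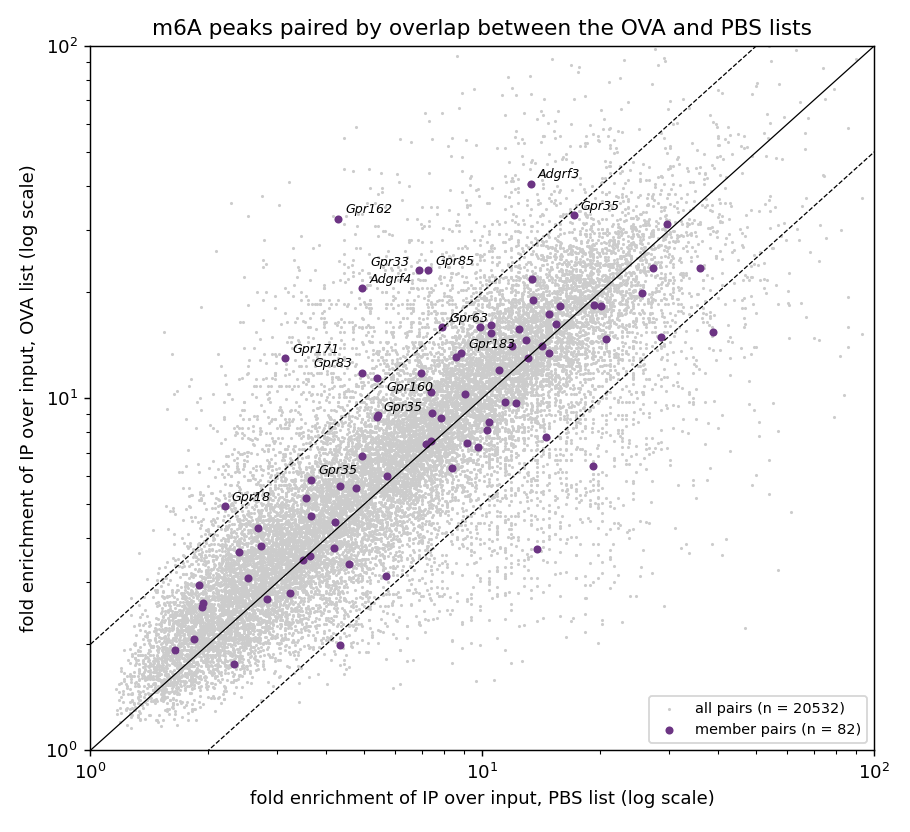
Fold enrichment of IP over input in the PBS list (x axis) and the OVA list (y axis), both on log scales, for 82 member pairs (purple) among 20532 pairs of overlapping peaks (grey); the solid line marks equal values and the dashed lines a ratio of 2 in either direction, and 34 pairs above 100 fall outside the axes. Of the member pairs, 10 lie on or above the upper dashed line and 4 below the lower one.

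Receptors of immune cells formed the largest of the receptor groups, with 13 genes, of which 11 had a peak in OVA and 9 in PBS, 8 of them in both. Its 12 pairs had a median ratio of 1.53, beside 1.10 over all pairs, and 2 of them were at least 2 times higher in OVA and 0 in PBS, beside 7.77% and 4.93% of all pairs. Of its peaks, 8 of 21 in OVA and 4 of 17 in PBS had no counterpart in the other list, beside 19.4% and 14.5% of all peaks.

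Gpr183 binds the oxysterol 7α,25-dihydroxycholesterol and guides B cells, T cells and dendritic cells within lymphoid tissue. Its main peak, annotated to the 3′ UTR and running over 2 exonic blocks, spanned chr14:121953859-121961280 in OVA with a fold enrichment of 13.4 and chr14:121953889-121961220 in PBS with 8.82. The ratio was 1.52, higher than in 82.2% of all pairs but under 2. A second, weak OVA peak nearby at chr14:121953324-121953473, with a fold enrichment of 2.09, had no PBS counterpart. The main peaks of both groups shared 1252 exonic bp.

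Enzymes that make and clear this ligand were read from a list of 3 genes. Ch25h, which hydroxylates cholesterol in the first step, had a 3′ UTR peak with a fold enrichment of 25.7 in OVA and 6.98 in PBS, a ratio of 3.68. Hsd3b7, which inactivates the ligand, had under its name 4 peaks in OVA between 4.06 and 4.36 and 2 in PBS at 3.75 and 3.71. Of these, 2 in OVA and 1 in PBS were called on Hsd3b7 and the others on overlapping genes, so the same stretch is listed more than once. Cyp7b1, which acts between them, had no peak by name in either list. Among the 3 pairs of these genes, only that of Ch25h passed a ratio of 2.

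Gpr35, a receptor of gut, mast cells and other leukocytes, had 4 peaks in OVA and 3 in PBS. The strongest lay in the 3′ UTR, at chr1:92983404-92984301 with a fold enrichment of 33.1 in OVA and at chr1:92983433-92984241 with 17.1 in PBS. The other overlapping peaks had 5.86 in OVA and 3.65 in PBS towards the 5′ end, and 8.86 and 5.37 further down the 3′ UTR. The ratios were 1.94, 1.61 and 1.65, so every Gpr35 pair was higher in OVA and none reached 2. The last OVA peak, at 2.79, had no PBS counterpart.

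Gpr171, an inhibitory receptor of T cells, had a 3′ UTR peak of 13.1 in OVA and 8.57 in PBS. Beside it, OVA had 1 peak of 13.0 at chr3:59097574-59101702 where PBS had peaks of 8.39 and 3.14. The pairing took the weaker of them, which shares more bases, and gave a ratio of 4.14, so that ratio depends on which PBS peak is used. A further OVA peak of 2.26 that carries its name was called on the neighbouring P2ry14.

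Gpr18, a receptor of lymphocytes, had peaks of 4.94 and 3.66 in OVA and of 2.20 and 2.40 in PBS, with ratios of 2.25 and 1.53. Gpr160, an orphan receptor outside that group, had 5′ UTR and 3′ UTR peaks of 11.4 and 11.8 in OVA and of 5.40 and 6.99 in PBS, with ratios of 2.11 and 1.69. Another OVA peak, at 2.98, lay upstream at chr3:30877349-30877469 and had no PBS counterpart. In these genes, as in Gpr35, each pair was higher in OVA.

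Gpr174 and Gpr34 respond to lysophosphatidylserine, a lipid released by damaged or activated cells. Gpr174, which restrains T and B cells, had a peak at chrX:107292083-107293158 of 12 in OVA and a PBS peak of 11, a ratio of 1.09. An OVA peak of 3.78 in its 3′ UTR was unshared. Gpr34 had 9.09 in OVA and 7.42 in PBS. These receptors differed little between the lists.

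Gpr84 senses medium-chain fatty acids on monocytes, macrophages and neutrophils, and had peaks in OVA only. One of 61 bp lay in its 3′ UTR at chr15:103308383-103308443, with a fold enrichment of 3.76 and a log10 FDR of -11.8. The other, at 1.98, was called on Zfp385a. The OVA mark on Gpr84 itself was thus 1 short peak of modest strength.

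Gpr55, a lysophosphatidylinositol receptor, had an OVA peak of 5.77 at chr1:85941858-85961007 with no PBS counterpart. Its 3′ UTR peaks carry the name of the antisense gene Gm28884, and there a peak of 28.4 in OVA paired with 15.3 in PBS. Gpr82, an orphan receptor, had a 62 bp OVA peak of 2.26 whose log10 FDR of -1.24 did not reach an FDR of 0.05. Gpr15, which brings T cells to the colon, had a pair of 17.3 in OVA and 14.8 in PBS.

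Gpr21 lies inside the Rabgap1 gene, and its own peaks were found in PBS. They had fold enrichments of 1.88 at chr2:37517258-37517408, 2.08 at chr2:37518333-37518483 and 1.43 at chr2:37518870-37518961, the last with a log10 FDR of -0.961, above an FDR of 0.05. The peak named for Gpr21 in both lists, 1.93 in OVA and 1.64 in PBS, was called on Rabgap1. By called gene, Gpr21 was thus found in PBS only. Gpr25, an orphan receptor of lymphocytes, had 1 PBS peak of 4.39 by name, called on Camsap2, and Gpr141 had no peak by name.

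**Figure D3:**
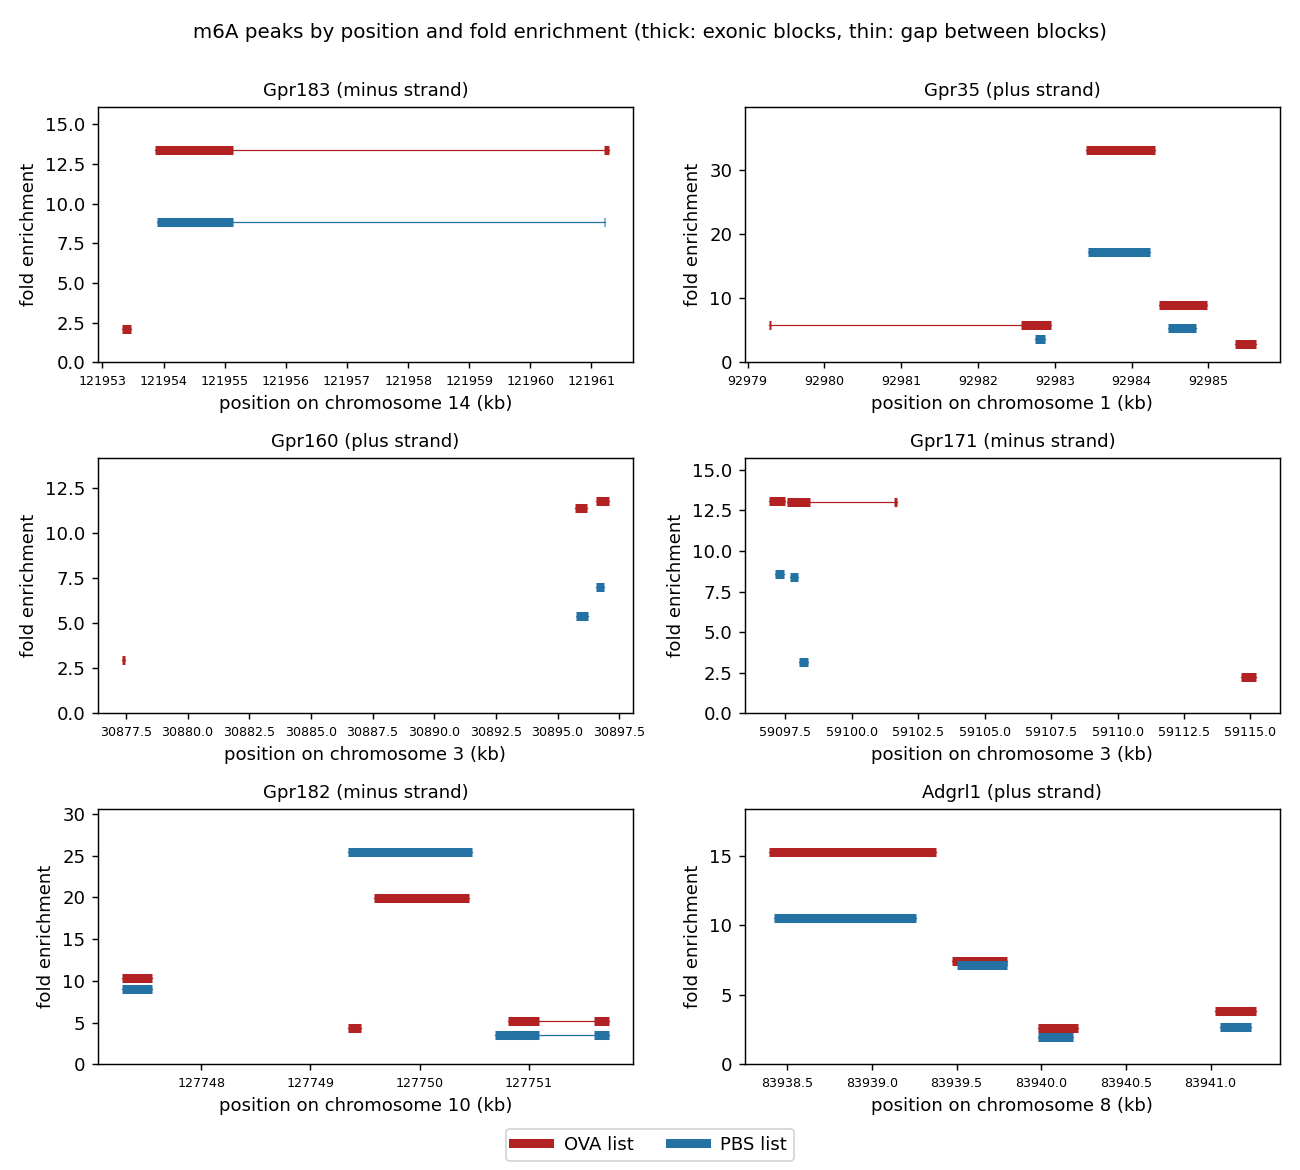
Position (kb, GRCm38) and fold enrichment of every peak named for Gpr183, Gpr35, Gpr160, Gpr171, Gpr182 and Adgrl1 in the OVA list (red) and the PBS list (blue); thick bars are exonic blocks and thin lines the gaps between them. The strongest Gpr35 peak stood at 33.1 in OVA and 17.1 in PBS, and that of Gpr182 at 19.9 in OVA and 25.5 in PBS.

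Proton-sensing receptors are activated by acid in inflamed tissue, and all 4 genes of the group had a peak in OVA, 2 of them also in PBS by name. The group's 5 pairs had a median ratio of 0.788. Gpr65, found on lymphocytes and eosinophils, had a peak of 19.0 over chr12:98268664-98276644 in OVA, and the PBS peak in its 3′ UTR, at 13.5, bore the name of Gm47567. Gpr132, a lysolipid-responsive receptor of lymphocytes and macrophages, had peaks of 14.7 and 8.12 in OVA and stronger PBS counterparts of 20.7 and 10.3. This set showed no common direction.

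Gpr4, an acid sensor of endothelium, carried in OVA only a 61 bp peak of 3.39 that had been called on Eml2. Its own transcript had a 5′ UTR peak at identical positions in both lists, chr7:19221886-19222392, named for Opa3, with 13.1 in OVA and 11.9 in PBS. A 3′ UTR peak of 3.30 called on Gpr4, also named for Opa3, was found in PBS only, at chr7:19223104-19223313.

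Receptors of blood and lymph vessels numbered 6, with 3 in each list by name and 2 in both, and a median ratio of 1.14 over 5 pairs. Gpr182, which takes up chemokines on lymphatic and sinusoidal endothelium, had 4 OVA and 3 PBS peaks. Its strongest, in the 3′ UTR, had 19.9 at chr10:127749581-127750450 in OVA and 25.5 at chr10:127749341-127750480 in PBS. A weaker OVA peak of 4.39 fell inside that same PBS peak, and the other pairs had 10.3 and 5.21 in OVA against 9.01 and 3.55 in PBS. The Gpr182 pairs thus went both ways.

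Adgra2, a co-receptor for Wnt7 signals in brain vessel growth, had 3′ UTR pairs of 9.66 and 4.27 in OVA and of 12.2 and 2.67 in PBS. Adgrl4, an endothelial receptor, had 1 peak, in PBS, of 1.40 and a log10 FDR of -0.918, the weakest member peak and above an FDR of 0.05. Adgrf5 is needed for surfactant balance in the lung and is found in its endothelium and alveolar epithelium. Its 3 peaks lay in both lists but carry the name of the small nuclear RNA gene Gm25135, with 7.51, 2.20 and 3.15 in OVA and 6.73, 2.23 and 2.56 in PBS. Adgrf5 was thus marked alike in both groups, under another name.

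The L family, made up of the latrophilins Adgrl1, Adgrl2 and Adgrl3, which bind teneurins and FLRT proteins, and of Adgrl4, had 3 of 4 genes with a peak in OVA and 4 of 4 in PBS, the difference being the weak PBS peak of Adgrl4. Its 10 pairs had a median ratio of 1.11, and 1 was at least 2 times higher in PBS. Adgrl1 had under its name 4 peaks in each list along its 3′ UTR, from chr8:83938393 to chr8:83941266 in OVA, with fold enrichments of 15.3, 7.41, 2.62 and 3.80 in OVA and of 10.5, 7.17, 1.94 and 2.72 in PBS. A further 3′ UTR peak called on Adgrl1, at chr8:83929493-83930182 in OVA, was named for Gm44450, with 10.5 in OVA and 5.49 in PBS.

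Adgrl2 also had 4 peaks per list. Its 3′ UTR peak had 18.3 in OVA and 20.1 in PBS, the peak over 4 internal blocks 14.1 and 11.9, and the 5′ UTR peak 5.55 and 4.75. Its last pair, 1.99 in OVA and 4.34 in PBS with a ratio of 0.459, was called on the overlapping gene Gm43573. Adgrl3 had a 5′ UTR peak of 23.4 at chr5:81020467-81021007 in OVA and of 36.0 at chr5:81020227-81021067 in PBS, and a 3′ UTR peak of 16.2 and 15.4. The 5′ UTR peak of Adgrl3 was among the 6 strongest member peaks of both lists.

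Adgrf3 and Adgrf4, little-studied members of the F family, had 3 pairs, 2 of them at least 2 times higher in OVA and 1 in PBS. Adgrf3 held the strongest member peak of OVA, 40.6 at chr5:30197140-30197499, against 13.3 in PBS, a ratio of 3.05. The Adgrf4 peaks were called on its neighbour Adgrf2. In these, a peak of 6.42 in OVA faced 19.2 in PBS, and the next one, within 1 kb, 20.5 in OVA against 4.93 in PBS. Adjoining peaks thus had ratios of 0.334 and 4.16, in opposite directions. Their log10 FDR was -3.01 and -6.68 in OVA and -4.73 and -2.97 in PBS. The Adgrf3 pair had -11.8 in OVA and -6.46 in PBS.

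The G family had 3 of 7 genes with a peak in each list and a median ratio of 1.12 over 5 pairs. Adgrg6, which drives myelination by Schwann cells, had pairs of 2.07, 13.4 and 16.1 in OVA and of 1.84, 14.8 and 10.5 in PBS. Adgrg5 had 2.55 and 1.93. The pair named for Adgrg3, a receptor of granulocytes, was called on Adgrg1, with 2.69 in OVA and 2.82 in PBS, while the peak called on Adgrg3 was named for Gm45757, with 4.00 in OVA and 9.02 in PBS.

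Of the A family, 2 of 3 genes had peaks in both lists, with a median ratio of 1.27 over 3 pairs, and Adgra3 had 15.7 in OVA and 12.4 in PBS. Adgrd1, the 1 gene listed for the D family, had 8.78 and 7.84. Adgrv1, the giant receptor of inner-ear hair cells, had a 3′ UTR pair of 3.13 in OVA and 5.68 in PBS, a ratio of 0.551. Adgrb2, of the brain angiogenesis inhibitors, was the 1 of 3 B family genes with a peak, an OVA peak of 6.03 at chr4:130018893-130019074 with no counterpart.

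The E family, expressed on leukocytes, had 0 of 3 genes with a peak by name. Adgre1 encodes F4/80, a macrophage marker, and Adgre5 encodes CD97, which binds CD55. A peak called on Adgre5 at chr8:83723250-83723698, identical in both lists and named for the microRNA gene Mir1668, had 11.6 in OVA and 42.9 in PBS. The ratio was 0.27. For its ligand Cd55, the peak had 6.01 in OVA and 6.31 in PBS.

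Proteins of the Golgi, lysosome and other inner membranes had 6 of 7 genes with a peak in OVA and 5 in PBS, and a median ratio of 1.03 over 8 pairs, none of them past 2 in either direction. Gpr107, a Golgi protein, had a 3′ UTR peak at identical positions, chr2:31214249-31215359, of 18.4 in OVA and 19.3 in PBS. Gpr89, which acts as an ion channel of the Golgi, had 4 OVA peaks of 18.3, 4.27, 17.1 and 3.57 and 3 PBS peaks of 15.8, 8.85 and 3.63 over the same 3′ UTR. Gpr155, a lysosomal cholesterol sensor, had pairs of 3.48, 2.94 and 5.99 in OVA and of 3.48, 1.89 and 5.70 in PBS. Gpr108, a Golgi protein, had an OVA peak of 2.81 at chr17:57247521-57248118 without a PBS counterpart. With that exception, the genes of this group with a peak had one in both lists.

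Gpr161, a ciliary receptor that holds back Hedgehog signalling, was the 1 of 5 genes of the ciliary and Gs-coupled group with a peak. Its 3 pairs had 9.75, 7.27 and 21.8 in OVA and 11.4, 9.75 and 13.4 in PBS, a median ratio of 0.855. Among the class C orphans, 2 of 3 genes had peaks, with a median ratio of 0.957 over 4 pairs, 1 of them at least 2 times higher in PBS.

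Gpr179, known from the bipolar cells of the retina, had the strongest member peak of PBS, 38.7 at chr11:97337103-97337582, where the OVA peak had 15.4. Its other pairs had 7.53 and 3.75 in OVA and 7.40 and 4.18 in PBS, and a further OVA peak of 2.11 was unshared. Towards the end of the transcript, peaks called on Gpr179 bore the name of the pseudogene Gm11594, and among these a peak of 23.6 in OVA faced 3.38 in PBS. The ratios were 0.398 and 6.98 within 1 gene.

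Of the receptors outside these groups, Gpr162, an orphan receptor, had the highest ratio among member pairs, 7.55. Its OVA peak of 32.3 covered 781 bp at chr6:124861142-124861922, where PBS had 2 shorter peaks of 4.28 and 4.56. Peaks called on Gpr162 but named for P3h3 went the other way, with a pair of 1.95 in OVA and 4.40 in PBS and an unshared PBS peak of 15.8. Gpr33, a chemoattractant-like receptor, had 23.1 in OVA and 6.91 in PBS, a ratio of 3.34. Gpr85, a conserved receptor of the brain, had 23.1 and 7.28, a ratio of 3.17. Gpr83 and Gpr63 completed the 10 pairs, with 11.8 and 15.9 in OVA and 4.93 and 7.90 in PBS. The other Gpr63 pair had 6.33 in OVA and 8.39 in PBS, and Gpr83 had an unshared PBS peak of 10.4 nearby. The OVA peak was also the longer one in Gpr33 and Gpr85, 415 against 208 bp and 925 against 449 bp.

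Among pairs with a low ratio, the one named for Gpr19, a brain receptor, with 14.9 in OVA and 28.6 in PBS and a ratio of 0.521, was called on 2810454H06Rik, while its own 3′ UTR pair had 10.4 and 7.40. Of the 4 pairs at least 2 times higher in PBS, those of Adgrf4 and Adgrl2 were called on other genes, and that of Gpr179 on the gene it was named for.

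Some strong peaks had near-equal values. Gpr157, an orphan receptor of the primary cilium, had a 5′ UTR peak of 31.3 at chr4:150087394-150087634 in OVA and of 29.6 at chr4:150087394-150087694 in PBS. Its 3′ UTR peaks, named for AL606971, differed more, with 30.5 and 3.56 in OVA and 18.0 and 13.3 in PBS. Gpr153 had a 3′ UTR pair of 23.4 in OVA and 27.2 in PBS. Gpr146, a receptor tied to cholesterol levels, had 4 OVA peaks of 2.80, 2.27, 14.1 and 1.76 and 3 PBS peaks of 3.23, 14.2 and 2.32. These genes belong to those with the strongest peaks or with 4 peaks in a list.

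Other genes with a peak in OVA only had single peaks. Gpr142, a tryptophan receptor of pancreatic islets, had 3.98, and Gpr45, an orphan receptor of the brain, had 3.52. Gpr20 had 4.62. Apart from Gpr65, the peaks of the 11 genes ranged no higher than 6.03.

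In total, 31 OVA and 29 PBS peaks were called on a member gene but named for another one, and 9 genes of the rule had peaks only in that form: Adgra1, Adgre5, Adgrf2, Adgrf5, Adgrg1, Gpr141, Gpr173, Gpr176 and Gpr75. In return, 13 of 108 OVA and 10 of 100 PBS member peaks were called on a gene other than the one named. The shares of all genes given earlier are by name, and none is given by called gene, so the following counts describe the members alone. Counted by called gene, 54 of the 97 RefSeq symbols were found in both lists, 9 in OVA only, 2 in PBS only and 32 in neither. Genes of the last kind include Gpr3, Gpr6, Gpr12, Gpr52 and Gpr158, known mainly from brain.

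Some 5′ peaks reach the transcript start, where RefSeq start windows give the sequence (GRCm38.p6, 60 windows for 44 of the 59 genes). The first 50 transcribed bases lay fully inside a peak named for the same gene for 7 windows, of Adgrl3, Gpr108, Gpr137, Gpr157 and Gpr161. They were searched for GGACT, a common form of the sequence in which adenosine is methylated, on the transcribed strand, since the mark is on RNA. The letters occurred in 3 of these 7 windows, beside 5.76% of all 32851 windows, 6.24% of the 753 inside an OVA peak and 6.46% of the 727 inside a PBS peak. On the opposite strand they occurred in 0 of the 7, in 4.87% of all windows, and in 7.70% and 8.12% of those inside an OVA or a PBS peak. Inside peaks in general the letters were thus no more frequent on the transcribed strand than on the other. With 7 windows the share is imprecise, and a match does not show that the base is methylated. The matches are shown with GGACT in capitals because they lie within peaks found in both groups. That of Gpr157 is at chr4:150087507-150087535 on the plus strand, that of Adgrl3 at chr5:81020576-81020604 on the plus strand and that of Gpr137 at chr19:6941161-6941189 on the minus strand, each within a peak annotated to the 5′ UTR.
Gpr157: gagggacctggaGGACTcagggtaggatt
Adgrl3: ggacggcgaggaGGACTgggcggagaagc
Gpr137: aaccaaggccagGGACTctgtgccactgc
The peaks that hold them had fold enrichments of 31.3, 23.4 and 4.44 in OVA and of 29.6, 36.0 and 4.21 in PBS.

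Downstream of the receptors, 10 of 16 G protein alpha subunit genes had a peak in OVA and 9 in PBS, with a median ratio of 1.10 over 12 pairs. The pair named for Gnat1 was called on Sema3f. Of 17 beta and gamma subunit genes, 9 had a peak in OVA and 8 in PBS, with a median of 1.08 over 9 pairs. The pairs named for Gng4, Gng8 and Gng10 were called on Lyst, Dact3 and Dnajc25. Receptor kinases and arrestins, which switch receptors off, had 6 of 8 genes in each list and a median of 0.917 over 9 pairs. None of these pairs passed 2 in either direction. Grk2, a kinase of many receptors, had a strong peak of 23.1 in OVA and 36.2 in PBS.

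RGS proteins, which speed the shut-off of G proteins, had 11 of 19 genes in OVA and 9 in PBS, with a median ratio of 1.17 over 13 pairs and none past 2. Rgs1, a brake on leukocyte migration, had 25.5 in OVA and 14.1 in PBS. Adenylyl cyclases, which make cyclic AMP, had 8 of 9 genes in OVA and 7 in PBS, with a median of 1.36 over 11 pairs. The 2 pairs past 2 were both of Adcy1, with 23.6 and 30.8 in OVA and 8.19 and 10.1 in PBS.

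Ligands and partners of adhesion receptors had 5 of 14 genes with a peak in OVA and 7 in PBS, with a median ratio of 0.992 over 6 pairs, 2 of them at least 2 times higher in OVA and 1 in PBS. Flrt2, a latrophilin ligand, had 3.98 in OVA and 8.64 in PBS, and Flrt3 had 19.7 and 19.1 in its 3′ UTR. Thy1, which binds CD97, had a pair of 8.07 in OVA and 2.60 in PBS, and the other pair higher in OVA was a Tenm4 peak of 2.19 in PBS facing a Nars2 peak of 5.98. The list as a whole was centred near an equal value.

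Of 10 lung markers, 8 had peaks in both lists, among them the surfactant genes Sftpa1, Sftpb and Sftpd, the club cell gene Scgb1a1 and the ciliated cell gene Foxj1, while Sftpc and Cdh5 had none by name. Their 15 pairs had a median ratio of 1.14, and those at least 2 times higher in OVA were the pair of Cldn5, with 21.8 and 10.8, and a pair named for Ager but called on Pbx2, with 9.24 and 4.59. Of 17 markers of infiltrating immune cells, 7 had a peak in OVA and 8 in PBS, with a median ratio of 1.02 over 8 pairs. By name, Chil3 and S100a8 were found in PBS only, with 1.75 and 2.15, and Cd4 in OVA only, with 1.71. A pair called on Cd4 was named for Gpr162, with 3.38 in OVA and 4.56 in PBS. The eosinophil receptor Ccr3 had 13.0 in OVA and 6.17 in PBS, while an exon pair of the T cell gene Cd3e had 5.78 in OVA and 10.4 in PBS. No peak by name was found in either list for 8 of the 17, among them Cd79a, Siglecf, Epx, Prg2, Retnla, Ly6g and Adgre1. A peak list gives no RNA level, and the part of cell composition in the receptor peaks was not tested.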

How the data were processed

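Per the paper's methods and the submitters' processing notes, the authors trimmed reads with FASTP, aligned them to the Ensembl mouse genome with HISAT2, used exomePeak to call peaks and ChIPseeker to assign genes and regions; how the 3 mice of a group were combined is not stated. Each deposited list gives a fold enrichment, a ratio of IP over input computed by the authors. The deposited p-value and FDR columns are on a log10 scale, with entries of minus infinity, and were treated as a score. The lists give no read counts, and the sequencing depth of the libraries was not used here.

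Members were chosen by gene name. The members and lists were chosen with earlier results of these data known. Values are given in full for Gpr183, Gpr84, Gpr174, Gpr21, Gpr160 and Gpr35, for members with peaks in 1 list, for the 6 strongest peaks per list, for the 6 highest and 6 lowest ratios with an FDR under 0.05, and for genes with 4 or more peaks in a list; some genes under this rule are counted but not shown. Genes outside this rule come from the gene lists or were chosen after their values were seen. Peaks overlapped when exonic blocks shared at least 1 bp. Of peaks called on a gene placed in RefSeq GRCm38.p6, 97.2% in OVA and 97.3% in PBS overlapped its position. The overlap code was tested on simulated data. Python 3.11.15, numpy 2.4.6, pandas 2.3.3 and matplotlib 3.10.9 were used. Alternatives covered FDR, fold enrichment, called gene, transcript type, overlap and ratio limits.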

Additional observations from a re-analysis of the deposited data

How the results depend on the processing

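No paired analysis was possible because 1 list per group was used, with no value of single mice; for the same reason no mouse could be left out in turn. Over the alternatives run, 53 counts stayed within 1.5 times of the count reported and 11 did not; the cause was not tested unless named. Requiring an overlap of 50% of both peaks raised the unshared member peaks from 20 to 39 in OVA and from 12 to 32 in PBS (36.1% and 32.0%, beside 31.4% and 28.3% of all peaks). Requiring an identical start and end raised them to 96 and 88 (88.9% and 88.0%, beside 89.7% and 89.3%), and left 0 pairs at least 2 times higher in OVA and 1 in PBS, where fewer pairs enter. With protein-coding transcripts alone, 6 of 71 PBS member peaks were unshared and 1 gene was in PBS only. The share of all peaks or names under this filter is not given, so the fall is not read as particular to the members. With an FDR under 0.05, 1 gene was in PBS only. With a 4-fold limit, 3 pairs were higher in OVA, those of Gpr162, Adgrf4 and Gpr171, and 0 in PBS. By the gene on which peaks were called, there were 126 member peaks in OVA and 119 in PBS. Dividing by the median ratio of all pairs gave 8 pairs higher in OVA and 6 in PBS. The shares of all pairs given earlier hold for the undivided ratio and a limit of 2. No share of all pairs stands beside the counts with a 4-fold limit, identical positions or divided ratios, which describe the members alone. Read counts behind single peaks are not listed, and whether weak peaks found in 1 list were missed in the other was not tested.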
